A study of Mus musculus with 8 samples.

Results

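E2F transcription factors and the pocket proteins that hold them form the switch between rest and S phase. Their messages were followed here in mouse liver after knockdown of the translational repressor gene Eif4ebp3. The set was fixed by name: the 8 E2F genes E2f1 to E2f8 and the pocket protein genes Rb1 and Rbl1, each matched to its entry in the deposited count table by gene symbol. All 10 were found among 55536 annotated genes. In resting cells the pocket proteins bind E2F proteins at the promoters of replication and mitosis genes and keep them silent. When cyclin-dependent kinases phosphorylate the pocket proteins, E2F proteins are released and those genes are transcribed. The adult liver is a largely resting tissue in which hepatocytes are often polyploid, and the atypical members E2F7 and E2F8 are known to promote that polyploidy.

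Liver RNA came from 2-month-old C57BL/6 mice, described as lean and wild type, that were killed 1 week after an injection of 0.1 OD of adenovirus and an overnight fast. In 4 samples the virus carried a hairpin against Eif4ebp3 (shEif4ebp3), and in 4 samples a hairpin against lacZ, a bacterial gene (shLacZ). Each sample is called a liver here, although the labels do not say that each came from its own animal. Every sample of both groups had received adenovirus, uninfected liver was not analysed here, and each group rests on 1 hairpin. Total estimated counts were 25330306 to 32389444 in shEif4ebp3 livers and 24371461 to 27079278 in shLacZ livers. Eif4ebp3 itself held 9.62, 13.9, 37.2 and 19.5 normalised CPM (a gene's count scaled to an equal library size) in shEif4ebp3 livers 1 to 4, against 289, 215, 204 and 49.3 CPM in shLacZ livers 1 to 4. Its log2 fold change was -3.24 ± 0.53 (SE; adjusted p = 0.000379, edgeR's quasi-likelihood test). It was lower in every shEif4ebp3 liver than in any shLacZ liver, although 501 of its exon bases are shared with AC115631.1 on the same strand, so the value may hold reads of both. ShLacZ liver 4 lay nearest the knockdown livers, so some results, among them the folds of E2f1, E2f2 and Rbl1, are also given without it.

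E2f1, E2f2, E2f7 and Rbl1 rose, by 3.5- to 4.9-fold, and the other 6 genes did not pass the test. A gene is called where the adjusted p of edgeR's quasi-likelihood test was under 0.05 over all 15375 genes tested. The call was made for 29.5% of these genes as higher and for 27.8% as lower, 57.2% in all, so 4 higher of 10 is not far from the share among all genes. Each of the 4 had a fitted fold of at least 3, a size chosen after the values were seen, which 7.71% of all genes reached as higher. In these 4 genes every shEif4ebp3 liver lay above every shLacZ liver, as it did for 27.4% of all genes, and for 52.1% the groups were apart in either direction. The median log2 fold change of the 10 genes was 0.12, against -0.0032 over all genes tested. All values are relative to the median gene. When libraries were scaled to their total counts alone, the median of all genes moved by 0.567 on the log2 scale, and 9 of the 10 genes were then called higher, as were 63.9% of all genes, with 7.73% lower. Of all calls 89.2% were then higher, against 51.5% with the main scaling.

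**Figure D1:**
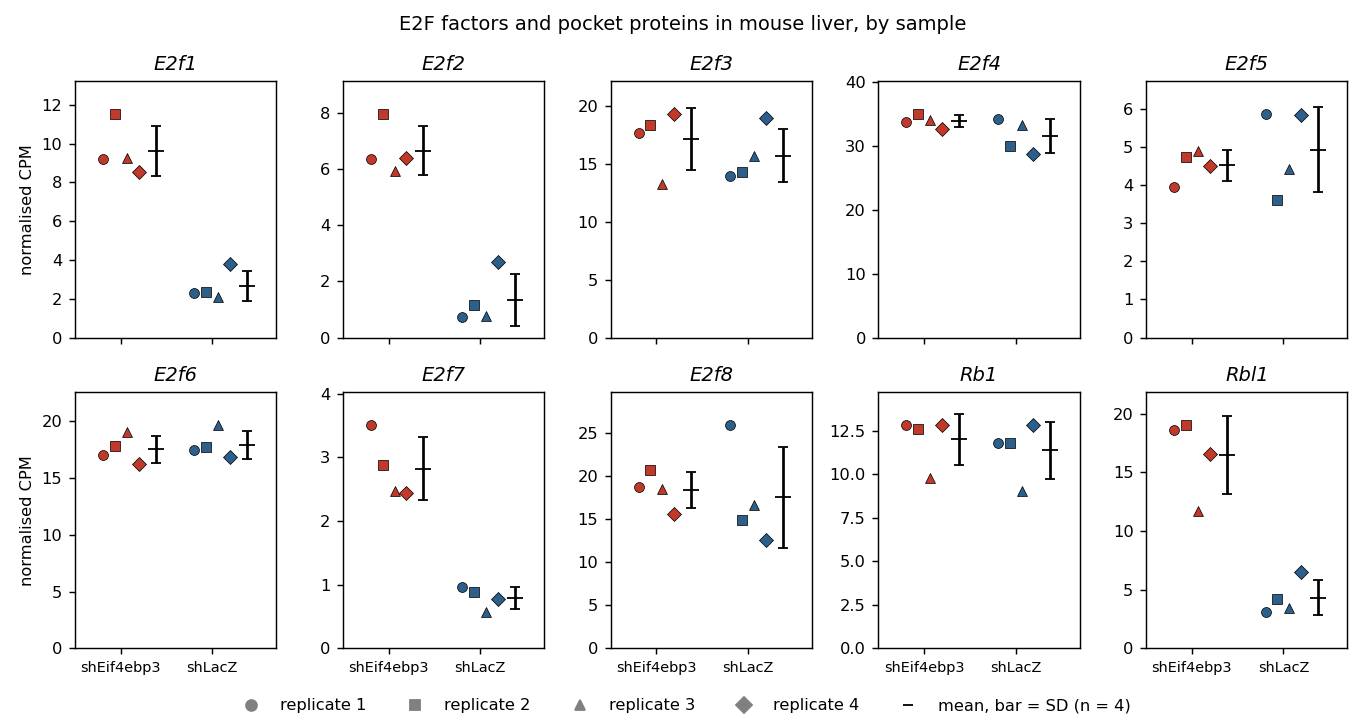
Normalised CPM of each E2F and pocket protein gene (vertical axes start at 0) in the 4 shEif4ebp3 livers, in red, and the 4 shLacZ livers, in blue, with the replicate shown by the marker and the mean and SD by the black bar. The groups are apart for E2f1, E2f2, E2f7 and Rbl1 and overlap for the other 6 genes.

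Stretches of 250 bases before the annotated start were read from the RefSeq promoter table (GRCm38.p6, the assembly also called mm10) to show which of these genes carry letters of an E2F site there. The letters searched for the E2F site were TTTCCCGC, TTTGGCGC, TTTCGCGC and TTTGCCGC, and for the cell cycle homology region (CHR), the element bound by the MuvB core complex, TTTGAA and TTCGAA, on both strands. Of the 10 genes 7 had a window, 9 windows in all, and E2f4, E2f5 and Rb1 had none. The window of E2f1 and the second window of E2f2 lie over annotated coding exons and are not shown. The start used for E2f1 lies 294 bases from the nearest start in GENCODE mouse release 21. The bases before that GENCODE start were thus not searched, and the E2f1 window, though counted below, does not show whether a match stands there. An E2F match stood in 3 of the 9 windows and in 1.86% of all 32851 windows of that length, and a CHR match in 3 of the 9 and in 17.1% of all. Of those CHR matches 1 is in the second E2f2 window, over coding sequence. The sequences below are those in which a match was found near a gene's outermost annotated start, on the gene's own strand from 5′ to 3′, with the matched letters in capitals and no overlap between matches. Rbl1 (chr2:157204535-157204784, minus strand) and E2f7 (chr10:110745189-110745438, plus strand) rose. E2f3 (chr13:29986064-29986313, minus strand) and E2f8 (chr7:48881597-48881846, minus strand) did not pass the test.
Rbl1: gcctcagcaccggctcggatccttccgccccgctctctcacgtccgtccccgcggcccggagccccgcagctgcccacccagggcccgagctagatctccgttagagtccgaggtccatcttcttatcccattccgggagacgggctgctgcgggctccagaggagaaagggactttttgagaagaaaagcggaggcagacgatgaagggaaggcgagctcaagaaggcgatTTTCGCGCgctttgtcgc
E2f7: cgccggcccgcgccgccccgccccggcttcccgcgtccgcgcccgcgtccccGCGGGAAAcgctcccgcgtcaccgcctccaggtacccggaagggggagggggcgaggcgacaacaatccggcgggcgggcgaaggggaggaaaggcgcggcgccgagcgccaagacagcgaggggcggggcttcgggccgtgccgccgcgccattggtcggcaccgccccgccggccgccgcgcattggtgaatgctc
E2f3: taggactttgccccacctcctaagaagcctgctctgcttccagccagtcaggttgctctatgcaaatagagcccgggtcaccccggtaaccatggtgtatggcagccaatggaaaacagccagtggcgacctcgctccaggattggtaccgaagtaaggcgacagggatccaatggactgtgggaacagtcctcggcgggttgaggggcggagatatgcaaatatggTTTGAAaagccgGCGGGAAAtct
E2f8: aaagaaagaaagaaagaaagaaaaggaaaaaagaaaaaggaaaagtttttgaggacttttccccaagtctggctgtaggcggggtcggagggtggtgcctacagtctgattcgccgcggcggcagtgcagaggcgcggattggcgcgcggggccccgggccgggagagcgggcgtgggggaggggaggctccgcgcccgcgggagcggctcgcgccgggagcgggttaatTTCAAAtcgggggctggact
In Rbl1 the E2F letters TTTCGCGC lie 18 to 11 bases before the start. In E2f7 the letters TTTCCCGC lie on the opposite strand, 198 to 191 bases before the start. The E2f3 window holds TTTGAA at 23 to 18 bases and, on the opposite strand, TTTCCCGC at 11 to 4 bases before the start. The E2f8 window holds TTTGAA on the opposite strand at 20 to 15 bases. A match thus stood before genes that rose and before genes that did not pass the test. A match describes the letters only, and factor binding was not measured.

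The activators E2F1, E2F2 and E2F3 drive entry into S phase, and among their genes E2f1 and E2f2 rose while E2f3 did not pass the test. E2f1 (chromosome 2, 154559407 to 154569892) held 9.21, 11.5, 9.24 and 8.54 CPM in shEif4ebp3 livers 1 to 4, against 2.30, 2.34, 2.11 and 3.79 CPM in shLacZ livers 1 to 4. The lowest shEif4ebp3 liver stood 2.25-fold above the highest shLacZ liver, which was replicate 4. E2f1 rose by 1.86 ± 0.20 on the log2 scale (SE), with a fold of 3.64 and a 95% interval of 2.69 to 4.92 (adjusted p = 1.86e-05, edgeR). Without shLacZ liver 4 the fold of E2f1 was 4.26 (adjusted p = 2.43e-06, edgeR). That was the highest fold with each liver left out in turn, and the lowest was 3.4, without shEif4ebp3 liver 2.

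E2f2 (chromosome 4, 136172394 to 136196057) was the least abundant of the activators in shLacZ livers and rose the most of the 10 genes. It held 6.37, 7.96, 5.94 and 6.41 CPM in shEif4ebp3 livers, against 0.72, 1.17, 0.771 and 2.69 CPM in shLacZ livers. The estimated counts behind these values were 202, 274, 173 and 250 in shEif4ebp3 livers, against 15, 25, 15 and 59 in shLacZ livers. The groups did not overlap, and shLacZ liver 4 held the most E2f2 of the shLacZ livers by a wide margin. The log2 fold change was 2.30 ± 0.35 (SE; fold 4.93, 95% interval 2.90 to 8.37; adjusted p = 0.000211, edgeR). Without shLacZ liver 4 the fold was 7.45 (adjusted p = 2.35e-06, edgeR). That was the highest fold of E2f2 with each liver left out in turn, and the lowest was 4.26, without shLacZ liver 1.

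E2f3 (chromosome 13, 29906575 to 29986063) held 17.7, 18.4, 13.3 and 19.3 CPM in shEif4ebp3 livers, against 14.0, 14.3, 15.7 and 19.0 CPM in shLacZ livers. The groups overlapped, with the lowest value of all in shEif4ebp3 liver 3. The fold was 1.09 with a 95% interval of 0.885 to 1.35 (adjusted p = 0.448, edgeR), so the interval did not reach the folds fitted for E2f1 and E2f2. Under total-count scaling E2f3 was called higher, with a log2 fold change of 0.69.

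E2F4 and E2F5 are the E2F proteins that pocket proteins, chiefly p130 and p107, hold on promoters in resting cells, and E2F6 represses without a pocket protein, within a Polycomb complex. None of these 3 genes passed the test. E2f4 (chromosome 8, 105297663 to 105305370), the most abundant of the E2F messages, held 33.8, 34.9, 34.1 and 32.6 CPM in shEif4ebp3 livers, against 34.2, 30, 33.3 and 28.7 CPM in shLacZ livers. Its fold of 1.07 had the narrowest 95% interval of the 10 genes on the log2 scale, from 0.952 to 1.21 (adjusted p = 0.289, edgeR).

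E2f5 (chromosome 3, 14578641 to 14606309) held 3.94, 4.74, 4.88 and 4.51 CPM in shEif4ebp3 livers, against 5.85, 3.60, 4.42 and 5.84 CPM in shLacZ livers. The shEif4ebp3 values all fell inside the range of the shLacZ values, and the fold was 0.916 (95% interval 0.695 to 1.21; adjusted p = 0.572, edgeR). E2f6 (chromosome 12, 16810963 to 16839742) held 17.0, 17.8, 19.0 and 16.2 CPM in shEif4ebp3 livers, against 17.4, 17.7, 19.6 and 16.8 CPM in shLacZ livers. Its ranges nearly coincided, and the fold was 0.98 (95% interval 0.855 to 1.12; adjusted p = 0.801, edgeR). Under total-count scaling E2f4 and E2f6 were called higher (log2 fold changes 0.67 and 0.54) and E2f5 was not (0.44), while the median gene stood at 0.56.

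The atypical members E2F7 and E2F8 bind DNA without a dimerisation partner and repress E2F targets late in S phase, and of their messages E2f7 passed the test and E2f8 did not. The difference between them was not tested. E2f7 (chromosome 10, 110745439 to 110787384) held 3.50, 2.88, 2.47 and 2.44 CPM in shEif4ebp3 livers, against 0.96, 0.888, 0.566 and 0.776 CPM in shLacZ livers. The lowest shEif4ebp3 liver stood 2.54-fold above the highest shLacZ liver, on estimated counts of 72 to 111 in shEif4ebp3 livers, against 11 to 20 in shLacZ livers. E2f7 rose by 1.81 ± 0.23 on the log2 scale (SE; fold 3.51, 95% interval 2.46 to 5.02; adjusted p = 7.06e-05, edgeR). Here shLacZ liver 4 lay within the other controls, and without it the fold was 3.47. With each liver left out in turn the fold of E2f7 was 3.21 to 3.75. Its exons share 86 bases with 1700020G17Rik on the opposite strand, a gene listed at 0 in all 8 livers.

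E2f8 (chromosome 7, 48866429 to 48881596) held 18.7, 20.7, 18.5 and 15.6 CPM in shEif4ebp3 livers, against 25.9, 14.9, 16.7 and 12.6 CPM in shLacZ livers. All shEif4ebp3 values lay inside the wide range of the shLacZ values, whose highest was replicate 1. The fold was 1.05 (95% interval 0.78 to 1.41; adjusted p = 0.781, edgeR), and 1.25 without shLacZ liver 1 (adjusted p = 0.0692, edgeR). The value of E2f8 is uncertain, because 610 of its 5443 exon bases are shared with Gm2788, a noncoding transcript on the opposite strand, and the sources used here do not say whether reads were counted by strand. None of the 8 deposited E2f8 values is a whole number. Gm2788 held 5.74, 4.10, 6.29 and 4.43 CPM in shEif4ebp3 livers, against 46.7, 36.9, 60.7 and 28.3 CPM in shLacZ livers, a log2 fold change of -3.07 (adjusted p = 2.21e-06, edgeR). Its part in the E2f8 value was not tested. Gm2788 was named after its values were seen.

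The pocket proteins pRB, p107 and p130 are encoded by Rb1, Rbl1 and Rbl2. Rbl1 rose and Rb1 did not pass the test, while Rbl2, which is not one of the 10 genes and came from the list of partner genes, fell. Rbl1 (chromosome 2, 157145893 to 157204534), whose product p107 is known to be made mainly in cycling cells, held 18.6, 19.0, 11.7 and 16.6 CPM in shEif4ebp3 livers, against 3.12, 4.25, 3.45 and 6.48 CPM in shLacZ livers. ShEif4ebp3 liver 3 and shLacZ liver 4 lay nearest each other, 1.81-fold apart. The log2 fold change was 1.92 ± 0.23 (SE; fold 3.8, 95% interval 2.66 to 5.41; adjusted p = 4.53e-05, edgeR). Without shLacZ liver 4 the fold of Rbl1 was 4.55 (adjusted p = 6.49e-06, edgeR). That was the highest fold with each liver left out in turn, and the lowest was 3.46, without shLacZ liver 1.

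Rb1 (chromosome 14, 73183673 to 73325822), the retinoblastoma gene, held 12.8, 12.6, 9.79 and 12.8 CPM in shEif4ebp3 livers, against 11.8, 11.8, 9.05 and 12.8 CPM in shLacZ livers. The groups overlapped, and the third replicate of each group was its lowest. The fold was 1.06 (95% interval 0.859 to 1.30; adjusted p = 0.642, edgeR), and Rb1 was called higher under total-count scaling, by 0.65 on the log2 scale. Of the exon bases of Rb1 14.9% are shared with Rcbtb2 and Lpar6, both on the opposite strand, and neither of these passed the test (adjusted p = 0.206 and 0.161, edgeR).

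Rbl2 (chromosome 8, 91070057 to 91123844), whose product p130 is the pocket protein typical of resting cells, held 29.4, 27.4, 32.3 and 32.8 CPM in shEif4ebp3 livers, against 63.1, 62.0, 53.9 and 62.2 CPM in shLacZ livers. Every shEif4ebp3 liver lay below every shLacZ liver, as for 24.7% of all genes. Rbl2 fell by 0.98 ± 0.09 on the log2 scale (SE; adjusted p = 5.04e-06, edgeR), and by 0.42 under total-count scaling, where it still passed. Of its exon bases 21% are shared with genes on the opposite strand, among them Aktip, which held 6.95 ± 0.595 CPM in shEif4ebp3 livers and 8.64 ± 0.48 CPM in shLacZ livers (SD, n = 4 each) and was itself called lower (log2 fold change -0.32, adjusted p = 0.0342, edgeR). None of the 8 deposited Rbl2 values is a whole number, so the value of Rbl2 is uncertain too.

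**Figure D2:**
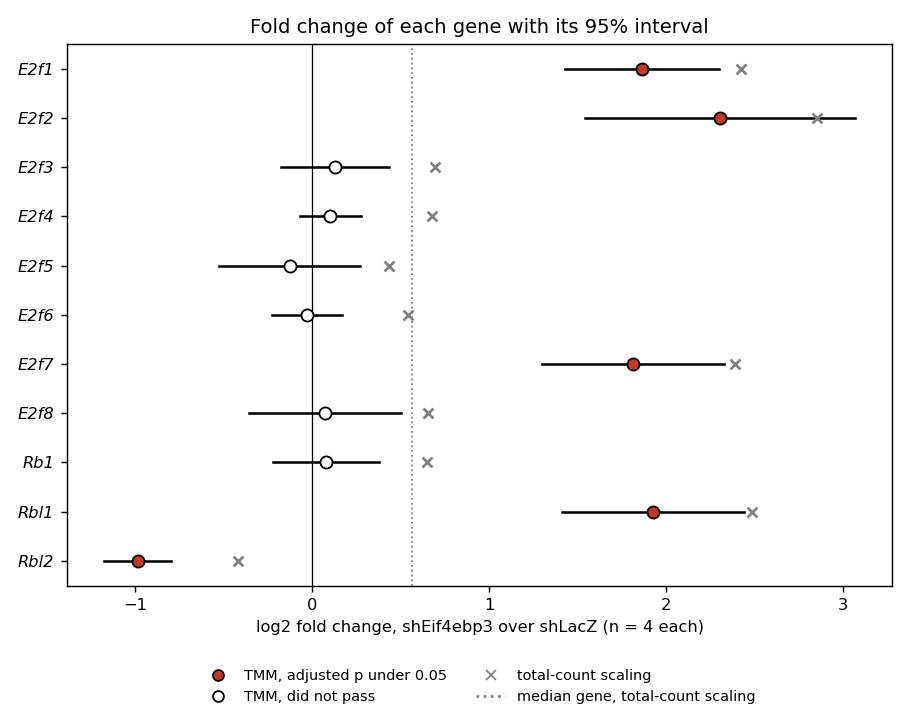
Log2 fold changes of shEif4ebp3 over shLacZ livers (horizontal axis) with 95% intervals from edgeR, n = 4 in each group, with filled points for an adjusted p under 0.05. Crosses give the value under total-count scaling, and the dotted line the median gene under that scaling. E2f1, E2f2, E2f7 and Rbl1 lie between 1.81 and 2.30, the other E2F genes and Rb1 between -0.13 and 0.13, and Rbl2 at -0.98.

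In the authors' deposited table, the log2 fold changes were 1.83 for E2f1, 2.17 for E2f2, 1.74 for E2f7 and 1.87 for Rbl1, each marked as significant there. The other 6 genes lay between -0.12 and 0.13 in the authors' deposited table and were not marked. Rbl2 lay at -0.98 there and was not marked either, although its adjusted p there was under 0.05. The authors' mark thus does not follow that adjusted p alone.

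To compare levels between genes, normalised CPM were divided by the gene length in kilobases that the deposited table gives. For some genes that length is far below the annotated exon bases: 2418 against 5663 for E2f6, 3567 against 9009 for E2f7 and 3691 against 5443 for E2f8. The order of genes and the shares given below depend on the length used, and no other length was tried. On this scale E2f4 stood highest, with 17.0 ± 0.482 CPM per kilobase in shEif4ebp3 livers and 15.8 ± 1.32 CPM per kilobase in shLacZ livers (SD, n = 4 each). E2f6 followed with 7.24 ± 0.498 in shEif4ebp3 livers and 7.38 ± 0.517 in shLacZ livers, and E2f8 with 4.98 ± 0.572 in shEif4ebp3 livers and 4.75 ± 1.58 in shLacZ livers. In shLacZ livers E2f3 at 3.09 ± 0.45, E2f5 at 2.81 ± 0.636 and Rb1 at 2.44 ± 0.348 CPM per kilobase came next and lay within each other's spread. E2f1 at 0.964 ± 0.284 and Rbl1 at 0.889 ± 0.312 could not be told apart, nor could E2f2 at 0.282 ± 0.195 and E2f7 at 0.223 ± 0.0482. The 4 genes that rose were thus the 4 with the lowest level per length in shLacZ livers.

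In shEif4ebp3 livers E2f1 reached 3.52 ± 0.48, Rbl1 3.39 ± 0.688 and E2f3 3.37 ± 0.522 CPM per kilobase, within each other's spread. Rb1 and E2f5 followed at 2.58 ± 0.318 and 2.58 ± 0.236 in shEif4ebp3 livers, then E2f2 at 1.41 ± 0.187 and E2f7 at 0.791 ± 0.139. E2f7 stayed the lowest of the 10.

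As a share of the summed level per kilobase of the 8 E2F messages, the activators E2f1 to E2f3 made up 20.2, 21.9, 17.8 and 21.3% in shEif4ebp3 livers 1 to 4, against 9.65, 12.0, 11.1 and 16.7% in shLacZ livers 1 to 4. E2f4 to E2f6 made up 63.4 to 68.2% in shEif4ebp3 livers, against 71.5 to 75.9% in shLacZ livers. The repressor messages were thus the larger part of the E2F pool in all 8 livers. Among pocket proteins, Rbl1 made up 21.8 to 32.1% of the summed level in shEif4ebp3 livers, against 4.01 to 7.97% in shLacZ livers, and Rbl2 45.7 to 59.2% in shEif4ebp3 livers, against 75.6 to 80.5% in shLacZ livers. The level of Rbl1 per length over that of Rbl2 was 0.641, 0.701, 0.368 and 0.512 in shEif4ebp3 livers, against 0.0501, 0.0695, 0.0648 and 0.106 in shLacZ livers. These ratios are taken within a library and carry no test, since the genes were chosen with their values known.

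**Figure D3:**
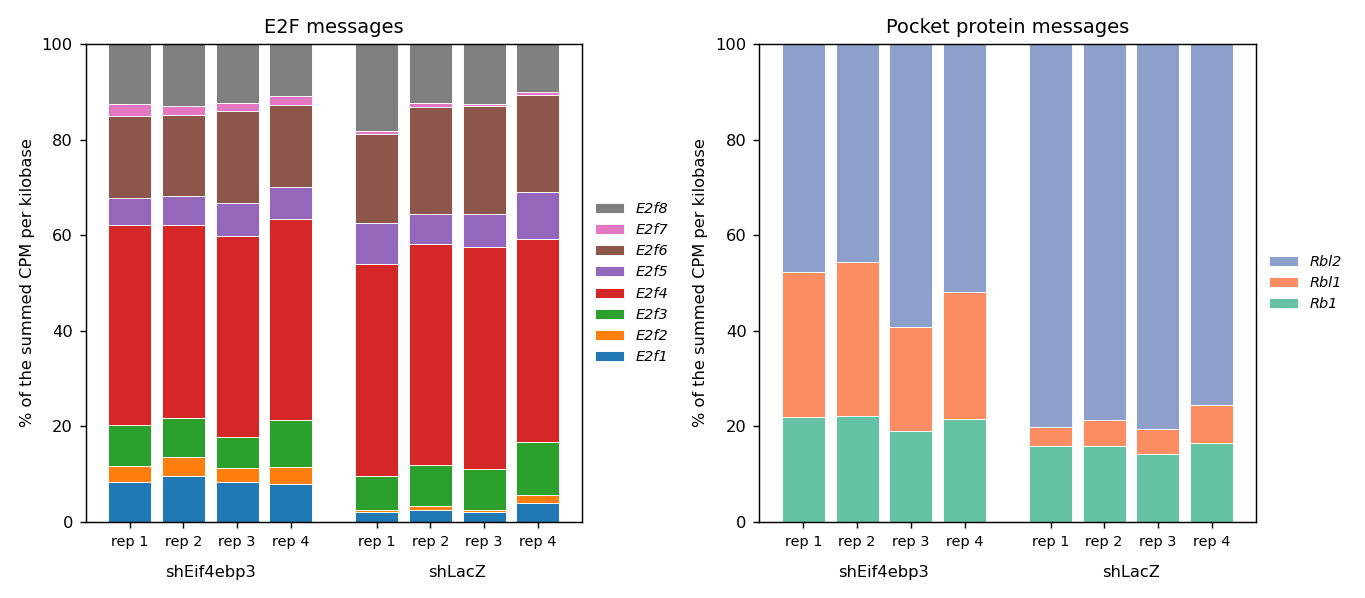
Share of each message (vertical axis, %) in the summed CPM per kilobase of the 8 E2F genes, left, and of Rb1, Rbl1 and Rbl2, right, one bar for each of the 4 shEif4ebp3 and 4 shLacZ livers. E2f1 and E2f2 take larger shares in the shEif4ebp3 livers, E2f4 is the largest E2F share in all 8, and Rbl1 is 21.8 to 32.1% of the pocket protein pool in shEif4ebp3 livers, against 4.01 to 7.97% in shLacZ livers.

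The genes around the E2F switch were taken from lists drawn up by known function, but with earlier results of these data known. Of 10 genes of cyclins and kinases that inactivate pocket proteins, 7 rose and 0 fell, beside 29.5% of all genes called higher. Their median log2 fold change was 1.45, against -0.0032 over all genes. Ccne1, the E-type cyclin that drives S phase entry, held 16.9, 22.7, 18.2 and 16.0 CPM in shEif4ebp3 livers, against 1.01, 1.4, 1.18 and 1.96 CPM in shLacZ livers, and rose by 3.72 ± 0.20 on the log2 scale (SE; adjusted p = 4.16e-07, edgeR). Ccnd1, the D-type cyclin whose kinase acts first on pocket proteins, rose by 2.35 ± 0.14 to 51.7 ± 8.03 CPM in shEif4ebp3 livers, against 10.2 ± 1.5 CPM in shLacZ livers (SD, n = 4 each). Cdc25a, the phosphatase that activates these kinases, rose by 2.10 ± 0.13. Ccnd2, Ccnd3 and Cdk6 did not pass the test.

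Of 8 genes of CDK inhibitors and Skp2, 5 rose, 0 fell, 1 did not pass the test and 2, Cdkn2a and Cdkn2b, were too low to be tested, beside 29.5% of all genes called higher. With each liver left out in turn 4 to 7 rose, the fewest without shEif4ebp3 liver 1 or 4 and the most without shLacZ liver 4. Skp2, which marks the inhibitor p27 for destruction and is itself a known E2F target, rose by 1.16 ± 0.13 on the log2 scale (SE), Cdkn1c, encoding p57, by 1.75 ± 0.22, and Cdkn1a, encoding p21, by 0.89 ± 0.16. Cdkn1a held 217 ± 13.9 CPM in shEif4ebp3 livers and 117 ± 30.9 CPM in shLacZ livers (SD, n = 4 each). Genes of the brake and genes of its release were thus both higher in the same livers. Ccnd1, Cdkn1a and Cdkn1c share exon bases with genes on the opposite strand, and their values could include antisense reads.

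Of 12 partners, among them the dimerisation partners, the MuvB core and the late factors Mybl2 and Foxm1, 6 rose and 1, Rbl2, fell (median log2 fold change 0.32), beside 29.5% of all genes higher and 27.8% lower. Under total-count scaling 11 of the 12 were higher and 1 lower. Mybl1, a MYB factor of the same family as Mybl2, held 32.8, 22.4, 14.1 and 19.8 CPM in shEif4ebp3 livers, against 0.432, 0.654, 0.463 and 1.23 CPM in shLacZ livers, and rose by 4.98 ± 0.35 on the log2 scale (SE; adjusted p = 1.29e-06, edgeR). Foxm1, which drives G2/M genes together with MuvB, rose by 1.92 ± 0.27 to 7.38 ± 1.24 CPM in shEif4ebp3 livers, against 1.94 ± 0.908 CPM in shLacZ livers (SD, n = 4 each), and shares exon bases with Tex52 and Gm44596 on its own strand.

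The genes that E2F proteins bind at the G1/S transition rose nearly throughout. Of 35, 31 rose, 2 fell and 2 did not pass the test, beside 29.5% of all genes called higher and 27.8% lower. The median log2 fold change was 1.74, against -0.0032 over all genes tested. Among the 31, Fen1, Gins2 and Chaf1a share 84.2, 67.3 and 52.5% of their exon bases with genes on the opposite strand. The values of these genes could include antisense reads. The helicase gene Mcm6 held 93.0, 103, 90.7 and 86.8 CPM in shEif4ebp3 livers, against 8.83, 14.2, 14.6 and 17.9 CPM in shLacZ livers (log2 fold change 2.75 ± 0.17, SE; adjusted p = 8.22e-07, edgeR). Rrm1, a ribonucleotide reductase subunit, rose by 1.38 ± 0.09, and Dnmt1, the maintenance DNA methyltransferase, by 1.92 ± 0.13. Orc1 exceeded the count minimum in shEif4ebp3 livers alone, so it could enter the test only by being higher there.

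The 2 genes that fell were Mcm10 and Tk1. Mcm10, a replication initiation factor, held 18.5, 18.9, 22.7 and 18.7 CPM in shEif4ebp3 livers, against 50.6, 45.4, 61.4 and 43.9 CPM in shLacZ livers, with no overlap between groups. It fell by 1.35 ± 0.12 on the log2 scale (SE; adjusted p = 5.33e-06, edgeR), and by 0.78 under total-count scaling, where it still passed. Tk1, thymidine kinase, fell by 0.72 ± 0.18 (adjusted p = 0.00573, edgeR), a call that was lost under total-count scaling. Of its exon bases 83 overlap Afmid on the opposite strand.

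Of 25 G2/M genes controlled by the DREAM complex and FOXM1, all 25 rose, beside 29.5% of all genes called higher. Their median log2 fold change was 2.33. In each of them every shEif4ebp3 liver lay above every shLacZ liver, as for 27.4% of all genes. Cdk1, the mitotic kinase, held 18.9, 19.2, 16.9 and 20.8 CPM in shEif4ebp3 livers, against 2.74, 3.92, 2.98 and 5.75 CPM in shLacZ livers (log2 fold change 2.29 ± 0.20, SE; adjusted p = 5.41e-06, edgeR). Top2a, which untangles chromosomes, rose by 2.45 ± 0.24, and the kinetochore motor gene Cenpe by 2.34 ± 0.23. Summed over the 25 genes, shEif4ebp3 livers held 378, 318, 253 and 308 CPM, against 44.0, 65.9, 59.2 and 112 CPM in shLacZ livers. ShLacZ liver 4, which had the least Eif4ebp3 of the controls, held the most of these messages and of E2f1, E2f2, E2f3, Rb1 and Rbl1 among them. It held the least E2f4, E2f6 and E2f8 of the controls, and it is the only shLacZ sample with a D in its code in the labels, where the other 3 have a C. The 31 and 25 higher calls stood at the same numbers without that liver.

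Windows of 250 bases were also read for these lists. An E2F match stood in 8 of 34 windows of G1/S genes (23.5%) and in 1 of 23 windows of G2/M genes (4.35%), and a CHR match in 5 of 34 (14.7%) and 9 of 23 (39.1%), against 1.86% and 17.1% of all windows.

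E2F6 acts in the Polycomb complex PRC1.6, and of 12 genes of its partners 4 rose and 0 fell, with a median log2 fold change of 0.10, a count near the 29.5% of all genes called higher. Under total-count scaling 11 of the 12 were higher. Hdac1 rose by 0.38 ± 0.07, Hdac2 by 0.34 ± 0.08 and Cbx3, a heterochromatin protein gene, by 0.26 ± 0.08 on the log2 scale (SE). Of 5 germline genes that E2F6 is known to silence in mouse cells, Stag3 and Smc1b, both of the meiotic cohesin, rose and 3 were too low to be tested. Stag3 held 28, 35, 31 and 27 estimated counts in shEif4ebp3 livers, against 0, 4, 5 and 4 in shLacZ livers, and Smc1b held 32, 33, 14 and 27 in shEif4ebp3 livers, against 9, 7, 5 and 4 in shLacZ livers. Both exceeded the count minimum in shEif4ebp3 livers alone, so their calls describe genes that could enter the test only by being higher there.

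Of 8 genes by which E2F1 is known to act in apoptosis and stress, 6 rose and 1, Ccng2, fell, and Trp73 was too low to be tested. Among all genes 29.5% were called higher and 27.8% lower. Apaf1, the core of the apoptosome, rose by 1.68 ± 0.20 on the log2 scale (SE) to 19.2 ± 3.55 CPM in shEif4ebp3 livers, against 5.98 ± 1.59 CPM in shLacZ livers (SD, n = 4 each). Pmaip1, encoding NOXA, rose by 1.39 ± 0.21. Ccng2, an atypical cyclin, fell by 0.40 ± 0.14 with overlapping groups (adjusted p = 0.0315, edgeR), and was higher, at 0.18, without a call under total-count scaling. No gene of the list was called lower without shEif4ebp3 liver 2 or 4, or without shLacZ liver 1, 2 or 3.

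**Figure D4:**
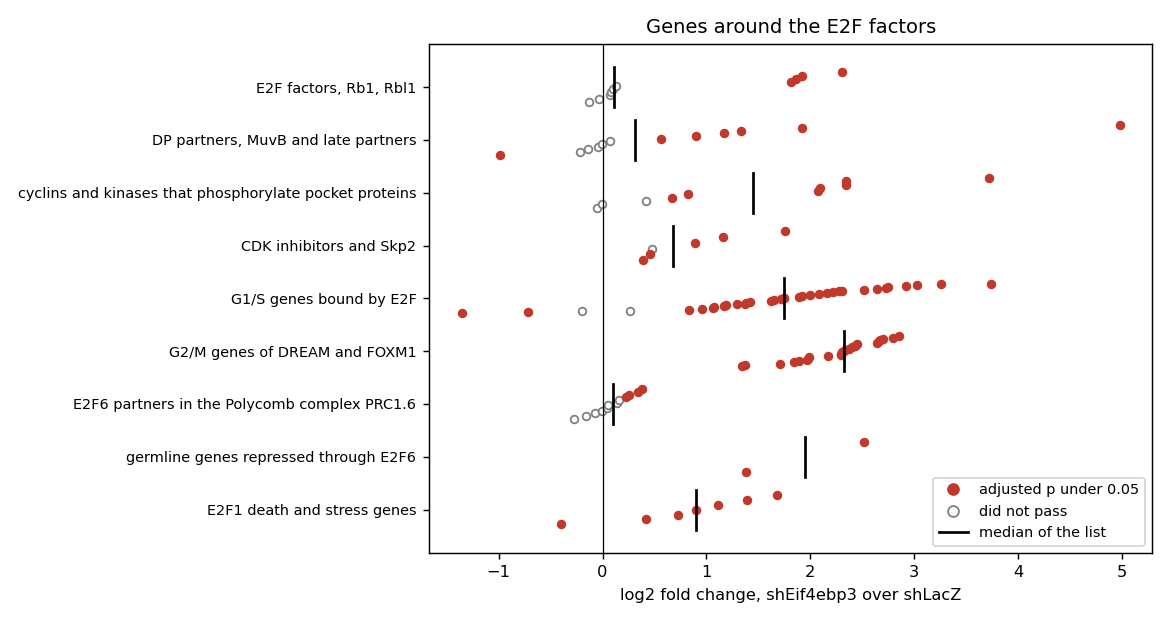
Log2 fold changes of shEif4ebp3 over shLacZ livers (horizontal axis) for the tested genes of each list, one point per gene, filled where the adjusted p of edgeR was under 0.05, with the median of the list as a black line. All 25 G2/M genes and 31 of 35 G1/S genes lie to the right of 0 with a call, while 6 of the 10 E2F and pocket protein genes sit close to 0.

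In whole liver, a change in the number of cells of a type and a change of RNA per cell cannot be told apart. Markers of some other cell types moved in the same livers as the E2F messages. The counts below stand beside 29.5% of all genes called higher and 27.8% called lower. Of 15 macrophage markers 13 rose and 0 fell, with summed levels of 1628 to 1906 CPM in shEif4ebp3 livers, against 657 to 875 CPM in shLacZ livers, led by C1qb and C1qa. Of 15 T and NK cell markers 12 rose and 1, Cd4, fell, with sums of 54.5 to 73.4 CPM in shEif4ebp3 livers, against 17.6 to 35.4 CPM in shLacZ livers. Of 11 stellate cell markers 7 rose and 1 fell, with sums of 622 to 1044 CPM in shEif4ebp3 livers, against 290 to 372 CPM in shLacZ livers, led by Col1a2 and Col3a1. Of 7 cholangiocyte markers 3 rose and 1 fell, with sums of 97.4 to 131 CPM in shEif4ebp3 livers, against 64.6 to 82.9 CPM in shLacZ livers. With each liver left out in turn 2 to 3 of these markers rose and 0 to 1 fell. The marker Krt7 exceeded the count minimum in shEif4ebp3 livers alone, so it could enter the test only by being higher there.

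Of 12 hepatocyte markers 10 fell, among them Fgb and Apob, beside 27.8% of all genes, while under total-count scaling 5 were lower and 2 higher. Their sums were 64569 to 83261 CPM in shEif4ebp3 livers, against 73898 to 96901 CPM in shLacZ livers. The tissue label stands, since Alb alone averaged 42079 CPM in shEif4ebp3 livers and 40829 CPM in shLacZ livers. None of 7 B and plasma cell markers was called, and of 9 endothelial markers 1 rose and 2 fell. The sums of these 2 lists overlapped between groups. Of 7 neutrophil markers 1 rose, 3 did not pass the test and 3 were too low to be tested. Neutrophil sums were 9.79 to 16.9 CPM in shEif4ebp3 livers, against 4.22 to 9.49 CPM in shLacZ livers. Of 8 erythroid markers 1 rose and 2, Alas2 and Klf1, fell, with overlapping sums. With each liver left out in turn 0 to 4 erythroid markers rose, the most without shLacZ liver 2. The shares over all genes were 29.5% called higher and 27.8% called lower. No marker of these lists was at 0 in all 8 livers. The part of any of these cells in the rise of E2f1, E2f2, E2f7 and Rbl1 was not tested.

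By root mean square distance of centred log2 CPM over the 8 livers, the 3 genes whose profile lay nearest to that of E2f1 among 12259 genes were Igsf8 (0.0943), Calhm6 (0.118) and Map4k1 (0.119). Each was low in shLacZ livers with its highest control value in replicate 4, as E2f1 was. Igsf8, for example, held 25.4, 28.5, 23.1 and 23.9 CPM in shEif4ebp3 livers, against 6.24, 7.10, 5.35 and 9.58 CPM in shLacZ livers. No such genes are named on the lower side, since none of the 10 genes fell.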

How the data were processed

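The authors deposited 1 matrix of expected counts by gene and sample, whose totals differ between samples as those of unscaled counts do. Not whole were 10.9% of the values, and all were rounded before testing. Tools listed are SAMtools 1.9, GATK 3.8, Bowtie2 2.2.9 and fastp 0.19.5, with mm10 as the build, per the submitters' processing notes. What counted the reads, with which annotation and whether by strand, was not given in the sources used here. Assembled loci (645) without a gene identifier hold 0.676 to 1.08% of a sample's counts. They were left out of the main test and its library sizes, while the total estimated counts given above include them. The authors' deposited table gives per gene a fold change, its log2, a p-value and an adjusted p-value of their own comparison, per the file headers, and a gene length.

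Counts were tested in R 4.3.3 with edgeR 4.0.16 (filterByExpr defaults, TMM factors, glmQLFit and glmQLFTest, Benjamini-Hochberg over 15375 genes). The test was also run on simulated counts in which few genes were changed. Here 57.2% of genes were called, so that run does not bear on the scaling of these data. All 10 genes exceeded the count minimum in all 8 samples. CPM are on the TMM-scaled total. Alternatives were DESeq2 1.42.0, limma-voom (limma 3.58.1), RLE factors, total-count scaling, other filters, the assembled loci, a replicate block, the samples coded C in the labels, and leaving out each sample. The labels name separate samples but no animals, so the p-values reflect sample-to-sample spread, which may be technical. Replicate pairs of one group differed beyond sampling noise (chi-square over degrees of freedom at least 8.94).

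The genes and the 17 lists (8 pathway, 9 marker; 206 symbols, all matched) were chosen with earlier results of these data known. Named are all 10 genes, Eif4ebp3, the 3 called genes with the smallest p of each pathway list and at most 2 called against most of it, and at most 2 per marker list; some of these results are not reported here. Genes named only as not passing, Mybl2, Orc1, Fen1, Gins2, Chaf1a, Krt7, Alb and genes overlapping the 10 were named after their values were seen. Positions are those of GENCODE mouse release 21, which uses the mm10 assembly.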

Additional observations from a re-analysis of the deposited data

Results flagged for a closer look

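In 6 of 60 groups of 4 values looked at, 1 sample lay apart from the others by a gap above 0.829 of the group's range, which chance gives in about 1 in 20 groups. E2f1 held 3.79 CPM in shLacZ liver 4, while the other shLacZ livers held 2.11 to 2.34 CPM. In the same liver the T and NK cell markers summed to 35.4 CPM, while the other shLacZ livers held 17.6 to 19.9 CPM, and the hepatocyte markers to 73898 CPM, while the others held 94917 to 96901 CPM. Rb1 held 9.79 CPM in shEif4ebp3 liver 3, while the other shEif4ebp3 livers held 12.6 to 12.8 CPM. The B and plasma cell markers summed to 8.07 CPM in that liver, while the others held 4.08 to 4.67 CPM. Rbl2 held 53.9 CPM in shLacZ liver 3, while the other shLacZ livers held 62.0 to 63.1 CPM.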

How the results depend on the processing

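The 4 higher and 0 lower calls among the 10 genes were the same in number under every alternative but total-count scaling, where 9 were higher. Under that scaling 1 of the G1/S genes was lower, and 9823 of all genes were higher and 1189 lower (89.2% of calls), against 4528 and 4272 (51.5%) with TMM. Leaving out each sample in turn gave 4 to 4 members higher and 0 to 0 lower, 31 to 31 G1/S genes higher and 2 to 3 lower, 25 to 25 G2/M genes higher and 0 to 0 lower, and 4091 to 4811 of all genes higher and 3764 to 4492 lower. Among the 10 genes, signs turned for genes without a call: under total-count scaling E2f5 stood at 0.44 and E2f6 at 0.54. In the lists, genes called lower that turned without a call under that scaling include Ccng2 at 0.18, Ambp at 0.17 and Clec4g at 0.083. With each sample left out in turn, E2f6 ranged over -0.070 to 0.016 (positive without shEif4ebp3 replicate 4 or shLacZ replicate 3), E2f8 over -0.065 to 0.32 (negative without shLacZ replicate 2 or 4), and Rb1 over -0.019 to 0.16 (negative without shLacZ replicate 3).

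Replicate numbers are shared between the groups, but same-numbered samples correlated by -0.128, -0.0383, 0.0584 and 0.148 over 15375 genes, so the numbers were not taken to pair the samples. Both replicate 4 samples, the pair with the highest value, also share the code D. With the replicate block 4 of the 10 genes were higher, and 4414 of all genes were higher and 4067 lower. Counts of 11 to 20 in shLacZ livers limit the precision for E2f7, and 15 to 59 for E2f2. Samples coded C in the labels also gave 4 higher genes on their own, and with 1 sample a group code D allows no test.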
